A study of Saccharomyces cerevisiae with 24 samples.

Results

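The nuclear tRNA genes of Saccharomyces cerevisiae were taken as all genes of biotype tRNA on the 16 nuclear chromosomes of the RefSeq annotation of assembly R64. This gave 275 genes out of 299 tRNA genes and 6431 nuclear genes of all kinds, and the 24 mitochondrial tRNA genes were not used. The genes are 71 to 133 bp long (median 73 bp), and 192 of them are at most 74 bp long. Giant colonies of BY4742, a haploid laboratory strain, were grown for 3 days at 28 °C, 6 to a plate, on glycerol and ethanol medium with the pH dye bromocresol purple, and cells were lifted off with a spatula. Open chromatin was assayed in 4 amounts of these cells, 4 mg, 20 mg and 100 mg as well as 500 mg, in 3 biological replicates per amount. FAIRE separates DNA that formaldehyde has not tied to protein from the rest: fixed chromatin is sheared and the free DNA is recovered from the water phase when the sheared material is extracted with phenol and chloroform. The paired input DNA came from cells that were not fixed. Each of the 12 FAIRE libraries was set against its own input by the authors' peak caller, which gave 12 peak lists with 4157 to 6436 nuclear peaks each.

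Transfer RNA genes are transcribed by RNA polymerase III from promoters that lie within the gene. The factor TFIIIC binds the A and B boxes inside the transcribed sequence and places TFIIIB just upstream of the start, and TFIIIB recruits the polymerase. In yeast the genes are spread over all chromosomes as single units, most exist in several near-identical copies, and the region just upstream is the preferred landing site of Ty1 retrotransposons. Many also lie close to the promoters of protein-coding genes.

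tRNA genes lay under FAIRE peaks far more often than other noncoding DNA of the same length. A gene was counted as overlapped when at least 1 bp of it lay in a peak. At 4 mg, 161, 200 and 196 of the 275 genes were overlapped in replicates 1, 2 and 3. At 20 mg the counts were 138, 127 and 185, at 100 mg they were 128, 191 and 182, and at 500 mg they were 159, 158 and 152. The mean was 59.9% ± 9.41 of the tRNA genes, against 21.8% ± 2.37 of 37406 windows of 75 bp that touch no protein-coding and no tRNA gene (SD, n = 12 libraries each). The lowest tRNA value, 46.2% in 20 mg replicate 2, lay above the highest window value, 24.5% in 20 mg replicate 3. The difference was +38.2 ± 8.34 percentage points, between 27.6 and 52.8, and positive in 12 of 12 libraries (exact two-sided sign-flip permutation test over libraries, p = 0.000488, the smallest it can give, Benjamini-Hochberg adjusted p = 0.00122 over 5 such tests). Against windows along the whole nuclear genome it was +36.9 ± 9.92 points, also positive in 12 of 12 libraries (exact sign-flip permutation test, adjusted p = 0.00122). The 76 snoRNA genes, which are short noncoding genes made mostly by RNA polymerase II, were overlapped in 5.26% to 13.2% of cases. The same genes entered every library. The p-values of these and the later sign-flip tests therefore cover the spread between libraries and not the spread between genes.

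**Figure D1:**
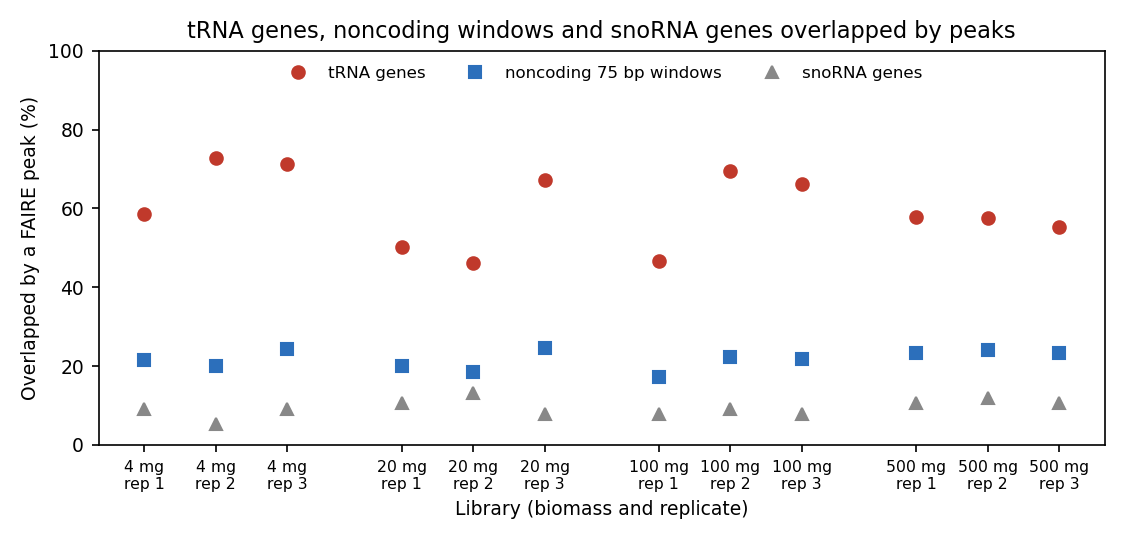
Percent of 275 tRNA genes (red circles), of noncoding windows of 75 bp (blue squares) and of 76 snoRNA genes (grey triangles) overlapped by a FAIRE peak (y axis) in each of the 12 libraries (x axis, by biomass and replicate). In every library the tRNA genes lie highest, between 46.2% and 72.7%.

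The summits of the peaks, the positions of highest enrichment, gathered on the tRNA gene itself. In the direction of transcription, the first 100 bp from the gene start held 106.8 ± 19.0 summits per library, summed over the 275 genes. The 100 bp before the start held 7.58 ± 3.70 and the next 100 bp downstream held 7.42 ± 2.39 (SD, n = 12 libraries each). Within the gene, the 20 bp interval with the most summits began 20 bp from the start and held 35.8 ± 9.10, followed by the interval that began at 40 bp with 31.7 ± 7.87. The gene bodies, where the A and B boxes lie, held 2.64 to 5.97 summits per kb, against 0.326 to 0.450 per kb in the noncoding windows. A summit lay inside the gene in 58 to 131 genes per library, with 100 mg replicate 1 lowest and 100 mg replicate 3 highest. Over all libraries there were 1977 overlaps between a gene and a peak list. In 61.5% of them the strongest overlapping peak had its summit inside the gene, at a median of 34.5 bp from the start, with quartiles of 22 and 50 bp. In 23.8% the summit was upstream and in 14.7% downstream. Summits in the flanks of 250 bp did not favour one side, with an upstream minus downstream difference of 0.333 ± 11.8 summits per library that was positive in 6 libraries and negative in 5 (exact sign-flip permutation test, p = 0.938, adjusted p = 0.938). In flanks of 100 bp the difference was −4.42 (exact sign-flip permutation test, unadjusted p = 0.00488). The flanks were not cleared of neighbouring tRNA genes, so a summit at 1 gene of a close pair also counted in the flank of the other. YNCB0015W and YNCJ0014C, both 72 bp long, had the summit of their peak downstream in all 12 libraries. It lay 75 to 112 bp and 73 to 121 bp from their starts. The part of such pairs in these differences was not tested.

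**Figure D2:**
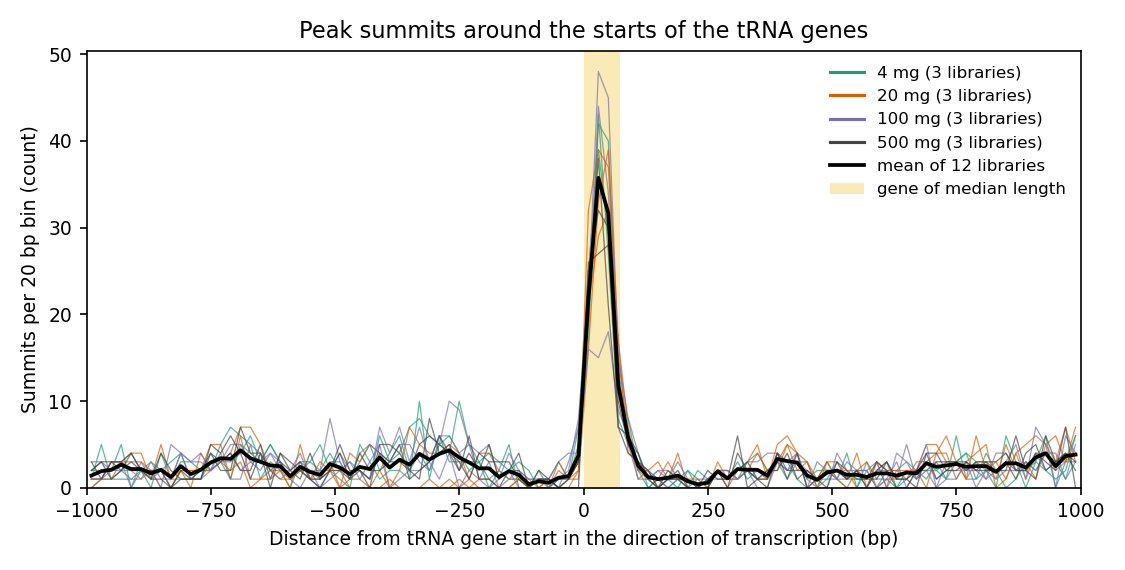
Number of peak summits per 20 bp interval (y axis) against distance from the start of the tRNA gene in the direction of transcription (x axis, bp), summed over 275 genes, for 12 libraries (thin lines, coloured by biomass) and their mean (black line). The summits gather within the gene, shaded to its median length of 73 bp, with a mean of 35.8 in the highest interval.

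Summits in the flanks were few and spread out, and those upstream of the gene varied with the library. The intervals from 400 to 301 bp and from 300 to 201 bp before the start held 15.4 ± 8.31 and 16.9 ± 9.17 summits per library (SD, n = 12 libraries). Other flanking intervals held as many, with 15.8 ± 4.67 in the interval from −700 to −601 bp relative to the start and 17.5 ± 3.42 from 900 to 999 bp after it. In the zone from 150 to 450 bp upstream, chosen after the profile was seen, the number of genes with a summit was 43, 71 and 54 at 4 mg. It was 3, 6 and 52 at 20 mg, 69, 58 and 28 at 100 mg, and 50, 45 and 47 at 500 mg, in replicates 1, 2 and 3. Replicates 1 and 2 of 20 mg were thus far below the other 10 libraries. The zone at the same distance downstream gave 21 to 36 genes in all 12 libraries. In 31 genes the upstream zone held a summit in at least 8 libraries, and in 23 genes the downstream zone did. Noncoding regions of the size of these zones were not counted, so the zone counts have no background share. Of the 31 genes, 16 were themselves overlapped in at most 3 libraries, as were 82 of all 275. For YNCI0002W the upstream zone held a summit in 11 libraries and the gene was overlapped in 0, and for YNCC0001C the counts were 10 and 1. Of the 31 genes, 1 lay within 1500 bp of a Ty reading frame, where 33 of all 275 tRNA genes lie, and 14 lay within 500 bp before a start codon, where 119 of all 275 lie. Long terminal repeats of Ty elements were not analysed here.

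Most tRNA genes were overlapped either in many libraries or in few. Of the 275 genes, 74 (26.9%) were overlapped in all 12 libraries, against 9.2% of the noncoding windows and 9.54% of windows along the whole genome. At the other end, 46 genes (16.7%) were overlapped in 0 libraries, against 66.7% of the noncoding windows. The median gene was overlapped in 9 libraries, 145 genes in at least 9 and 82 in at most 3. The first 10 of the 46 in chromosome order were YNCB0007W, SUP53, YNCC0008W, YNCC0009C, YNCD0009W, YNCD0016C, YNCD0023C, YNCD0026W, YNCD0031C and YNCE0008C. YNCC0008W and YNCC0009C are neighbours, 1292 bp apart on chromosome III. A summit lay inside the gene in all 12 libraries for 22 genes and in none for 97. The matching shares of noncoding windows were not computed for summits. Genes that share a family can share near-identical sequence, and the sources used here do not say how reads that map to several places were treated. A missing peak therefore cannot be told apart from reads that were discarded or spread over copies.

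**Figure D3:**
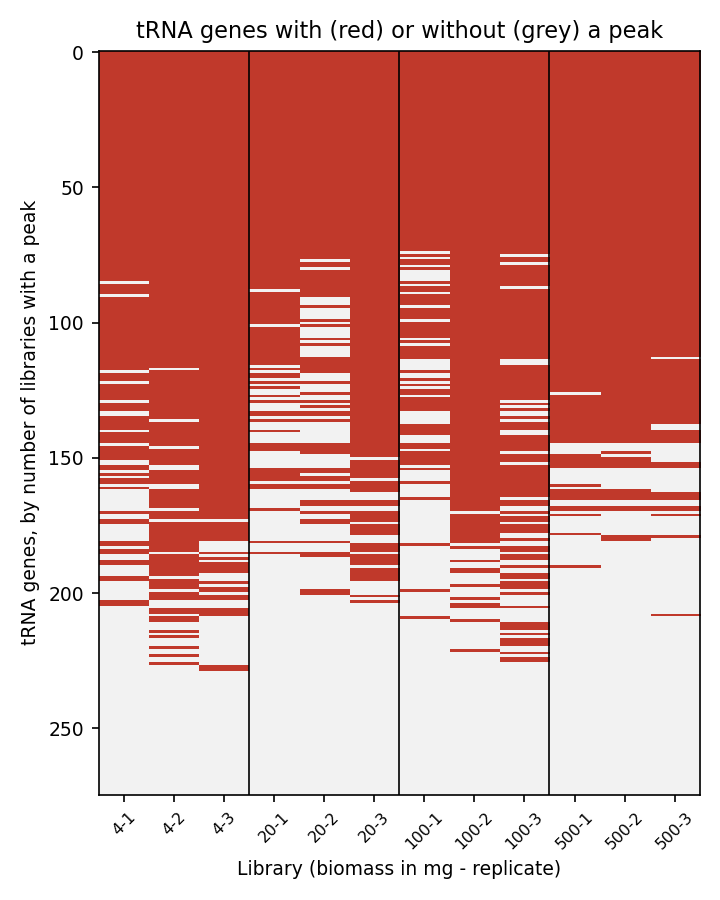
Presence (red) or absence (grey) of an overlapping peak for each of the 275 tRNA genes (rows, sorted by the number of libraries with a peak) in the 12 libraries (columns, biomass in mg and replicate). The upper 74 rows are red throughout, the lowest 46 are grey throughout, and the 500 mg columns resemble each other most.

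The highest median fold enrichments among the genes overlapped throughout, as given by the authors' peak caller, were close to each other, at 3.19 to 3.34. Fold enrichment is a ratio of FAIRE over input signal and depends on each library, so it is given only as the lowest, median and highest of 12 lists. SUP51, a leucine tRNA gene between CTK2 and CYR1 (chromosome X, 424432 to 424515), had 2.28, 3.34 and 4.84, with a summit inside the gene in 9 libraries. YNCE0016C (chromosome V, 312023 to 312095) had 2.11, 3.32 and 5.56, but its summit lay inside in 1 library only and the median peak was 1076 bp wide. YNCD0004W (chromosome IV, 410379 to 410451) lies 322 bp from YDL022C-A and 1373 bp from GPD1, the glycerol-3-phosphate dehydrogenase gene. It had a median of 3.27 with an inside summit in 6 libraries. YNCP0009W, between REC8 and HAA1 (chromosome XVI, 572269 to 572339), had a median of 3.23 with an inside summit in 10 libraries. YNCL0047W, between FBP1 and SEC61 (chromosome XII, 875376 to 875471), had a median of 3.21, but its summit lay inside in 0 libraries and at a median position of −136.5 bp relative to the start. FBP1 encodes fructose-1,6-bisphosphatase, an enzyme of gluconeogenesis. The other 5 of the 10 strongest were members of pairs of adjacent tRNA genes.

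In each of the 6 pairs of tRNA genes that lie within 500 bp of each other, at least 1 gene was overlapped in 12 of 12 libraries. YNCB0015W and YNCB0016W (chromosome II, 405878 to 406031) are 10 bp apart and shared 1 peak with a median fold of 3.23. Its summit lay inside the second gene in 10 libraries and inside the first in 0. YNCJ0011W and YNCJ0012W (chromosome X, 355374 to 355527), also 10 bp apart, shared a peak with a median fold of 3.19. Its summit lay inside the second gene in 8 libraries and inside the first in 2. YNCG0028W (chromosome VII, 700675 to 700756) had a median fold of 3.26 and an inside summit in 12 libraries, while its neighbour YNCG0029C, 196 bp away on the other strand, was overlapped in 1. The 12 paired genes were overlapped in 92.4% of cases on average, against 58.4% for the other 263. Counted as loci, 69 of 269 were overlapped in all 12 libraries.

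The amino acid is known from the standard gene symbol for 47 of the 275 genes, and the other 228 carry systematic names only, with no anticodon in the table used. Between the methionine families the values lay far apart. The initiator genes IMT1 to IMT4, whose tRNA starts translation, were overlapped in 9, 11, 11 and 11 libraries, and each overlap had a summit inside the gene. Their median folds over the lists with a peak were 3.98, 2.99, 3.14 and 3.26, in the same gene order. The elongator genes EMT1 to EMT5, whose tRNA inserts methionine inside proteins, were overlapped in 4, 4, 0, 0 and 1 libraries, and in 0 libraries at 500 mg. A summit lay inside an elongator gene only once, in EMT1. The amino acid classes were compared after the values were known, and no test was made.

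Proline and serine genes with a standard symbol were overlapped in most cases. Other members of these families can lie among the 228 genes without an assigned amino acid. The 7 proline genes with a symbol averaged 89.3% over the libraries. SUF2, SUF9, SUF10 and SUF11 were overlapped in 12 libraries, SUF8 in 11, TRN1 in 10 and SUF7, which lies 458 bp from a Ty reading frame, in 6. The 4 serine genes with a symbol averaged 93.8%, with 12 libraries for SUP17 and SUP19, 11 for SUP16 and 10 for SUP61. SUP17 had no summit inside the gene in any library, and SUP19 had one in 12.

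Among the 9 glycine genes with a standard symbol the length of the gene went with the count. SUF16, SUF17 and SUF23, all 71 bp long, were overlapped in 12 libraries and SUF20, also 71 bp long, in 11. The 5 genes of 72 bp, SUF1, SUF3, SUF4, SUF5 and SUF6, were overlapped in 5, 8, 7, 9 and 6 libraries. In yeast these SUF genes are known from frameshift suppressor mutations. Leucine genes with a symbol also differed by length, with SUP51 (84 bp) in 12 libraries and the intron-bearing genes SUP53, SUP54 and SUP56 (114 bp each) in 0, 0 and 1.

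The 8 tyrosine genes, known in yeast as sites of nonsense suppressor mutations, varied widely across libraries. SUP2 and SUP3 were overlapped in 11 libraries, SUP5 in 8, SUP6 in 7, SUP7, SUP8 and SUP11 in 5 each, and SUP4 in 0. Of the 8 genes, 4, 7 and 7 were overlapped at 4 mg, then 2, 1 and 7 at 20 mg, 4, 7 and 7 at 100 mg, and 3, 2 and 1 at 500 mg. The 500 mg libraries thus overlapped with the 20 mg libraries and lay below all those of 4 mg and 100 mg. All 8 genes are 89 bp long with an intron, and SUP3 had no summit inside the gene in any of its 11 libraries.

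Several genes known for a function of their own were overlapped in between 0 and 11 libraries. TRT2, a threonine tRNA gene 439 bp from STE6 that is known to affect repression of STE6 in yeast, was overlapped in 0 libraries (chromosome XI, 46735 to 46806). CDC65, an essential glutamine tRNA gene (chromosome XIII, 808246 to 808317), was overlapped in 0. TRR4, an essential arginine tRNA gene (chromosome XII, 818609 to 818680), was overlapped in 10, with a summit inside in 4. The tRNA gene between HMRA1 and GIT1, YNCC0014W, known as the barrier that stops silent chromatin from spreading out of HMR (chromosome III, 295484 to 295556), was overlapped in 11 libraries, with folds of 2.41, 2.53 and 4.17 as lowest, median and highest. Its summit lay inside the gene in 3 libraries and at a median of 87 bp from the start. SUP53 lies beside LEU2 (chromosome III, 90859 to 90972), and its upstream zone of 150 to 450 bp held a summit in 9 libraries. BY4742 is known to carry a deletion of LEU2, and the sources used here do not say how far it reaches.

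**Figure D4:**
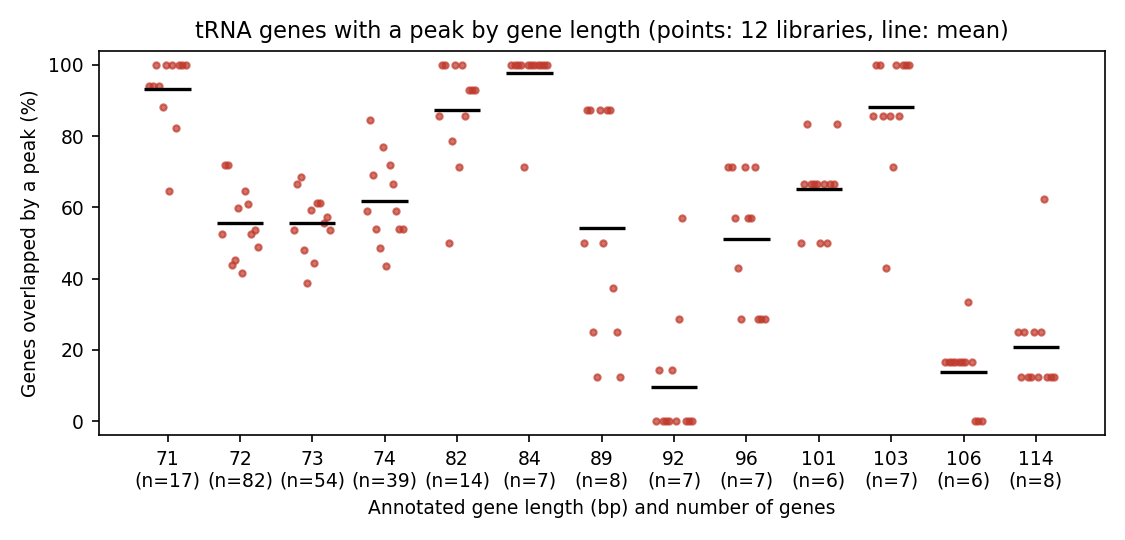
Percent of tRNA genes overlapped by a peak (y axis) by annotated gene length in bp (x axis, number of genes below, lengths with at least 5 genes), with 1 point per library and a line at the mean of the 12 libraries. Of the lengths shown, genes of 84, 71 and 103 bp have the highest means and genes of 92, 106 and 114 bp the lowest.

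The share overlapped differed between classes of annotated length, which includes any intron, although genes of 1 length could also differ widely. The classes were compared with no test. The 17 genes of 71 bp were overlapped in 93.1% ± 10.6 of cases, and 10 of them in all 12 libraries. The 22 genes of 82 to 84 bp, a length at which yeast has serine and leucine genes with a long variable arm, were overlapped in 87.1% ± 10.8. The 175 genes of 72 to 74 bp averaged 57.0% ± 9.91 (SD, n = 12 libraries each), with 44 in all 12 libraries and 33 in 0. The 43 genes of at least 89 and under 106 bp averaged 59.7% ± 12.8, close to all tRNA genes, with 10 in all 12 libraries and 5 in 0. Genes of 106 to 133 bp averaged 24.1% ± 8.97, with 0 of 18 in all 12 libraries and 8 in 0. The 133 bp genes were an exception among these, with both members in at least 9 libraries. Low means were found at 92 bp with 9.52% over 7 genes, 106 bp with 13.9% over 6, 114 bp with 20.8% over 8, 115 bp with 0% over 2 and 83 bp with 8.33% for 1 gene. Genes of 103 bp, which include intron-bearing proline genes, reached 88.1% over 7. Length classes follow families of near-identical genes, and the part of shared sequence in these values was not tested.

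By chromosome, the highest means were 79.2% ± 15.6 on chromosome VI (10 genes), 75.6% ± 8.57 on II (13 genes) and 73.8% ± 6.58 on XII (21 genes). The lowest were 36.4% ± 11.6 on VIII (11 genes), 47.2% ± 15.3 on XIII (21 genes) and 49.8% ± 13.3 on VII (36 genes; SD, n = 12 libraries each). Genes on the Watson strand averaged 62.8% and those on the Crick strand 56.8%.

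The share of tRNA genes overlapped near Ty elements had a wide spread over libraries, with 56.3% ± 20.4, against 60.4% ± 8.40 for the other tRNA genes (SD, n = 12 libraries). Ty reading frames were found as 41 pairs of genes that share a start codon and whose longer member exceeds 4500 bp, the arrangement of gag and gag-pol in Ty elements. The 33 tRNA genes within 1500 bp of such a frame were overlapped in 17, 26 and 27 cases at 4 mg, 10, 6 and 23 at 20 mg, 12, 26 and 15 at 100 mg, and 21, 20 and 20 at 500 mg. Of these 33 genes, YNCD0020W, YNCN0008C and YNCP0022W (9.09%) were overlapped in all 12 libraries and 5 in 0. Of the other 242 genes, 71 (29.3%) were overlapped in all 12 libraries and 41 in 0. The difference in percent overlapped from the other 242 genes averaged −4.09 ± 15.0 percentage points. It had no constant sign, with 7 libraries above 0 and 5 below (exact sign-flip permutation test, p = 0.366, adjusted p = 0.458). The Ty reading frames themselves were covered by peaks over 33.6%, 93.1% and 87.7% of their length at 4 mg, 4.15%, 1.44% and 79.8% at 20 mg, 12%, 82.3% and 14.8% at 100 mg, and 88.5%, 81.5% and 79.3% at 500 mg. The 5 libraries below 0 were 4 mg replicate 1, 20 mg replicates 1 and 2, and 100 mg replicates 1 and 3, which were also the 5 with the least Ty coverage, and their part in the biomass comparison was not tested. A peak that spans a Ty frame and a nearby tRNA gene counts in both values, so the 2 are not independent. The sources used here do not say what was done with reads that match several Ty copies.

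Pooled over libraries, the peaks over genes near Ty were wide and seldom centred on the gene, but this varied with the library. Their pooled median width was 1413 bp, against 311 bp for the other genes. Peaks of at most 1000 bp overlapped 12 of the 17 overlapped genes near Ty in 4 mg replicate 1. The counts were 9 of 10 and 5 of 6 in 20 mg replicates 1 and 2. In 100 mg replicates 1 and 3 they were 10 of 12 and 14 of 15. In the remaining libraries they were 3 of 26 and 3 of 27 at 4 mg, and 8 of 23 at 20 mg. At 100 mg the count was 8 of 26, and at 500 mg 3 of 21, 3 of 20 and 4 of 20. A summit lay inside 14.4% ± 10.5 of the genes near Ty, against 39.9% ± 6.70 of the others (SD, n = 12 libraries). That difference, −25.5 ± 8.03 points, was negative in 12 of 12 libraries (exact sign-flip permutation test, unadjusted p = 0.000488, the smallest it can give). It lay between −23.1 and −12.8 in the 4 libraries with Ty coverage under 15%. IMT1, 469 bp from a Ty frame, differed from most, since a summit lay inside it in all 9 libraries in which it was overlapped.

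**Figure D5:**
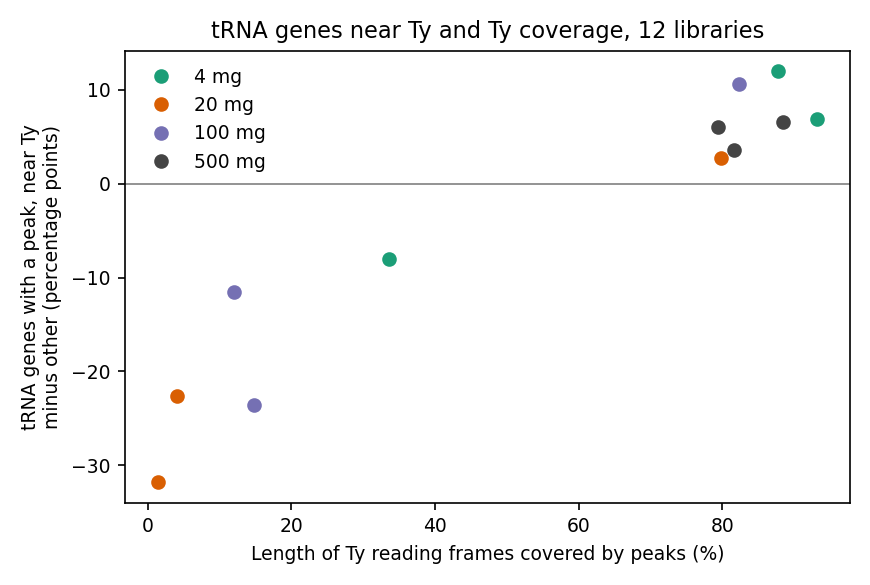
Percent of tRNA genes overlapped within 1500 bp of a Ty reading frame minus that of the other tRNA genes (y axis, percentage points) against the percent of Ty reading frame length covered by peaks (x axis), 1 point per library, coloured by biomass. Libraries with coverage of 1.44% to 33.6% lie below 0 and those with 79.3% to 93.1% lie above 0. Both axes use the same peaks, so a peak that spans a Ty frame and a nearby tRNA gene counts on both.

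The tRNA genes near a start codon differed little from the others, and the sign of the difference depended on the window. The 119 tRNA genes within 500 bp before a start codon were overlapped in 57.9% ± 7.88 of cases, against 61.4% ± 10.8 of the other 156 (SD, n = 12 libraries). The difference of −3.52 ± 4.02 points was negative in 9 of 12 libraries (exact sign-flip permutation test, p = 0.0151, adjusted p = 0.0252). With an upstream window of 250 bp it was +4.56 points (exact sign-flip permutation test, unadjusted p = 0.00293). Both p-values measure how repeatable the same genes were over libraries, not the spread between the genes compared. Genes away from such windows, from Ty frames and from other tRNA genes numbered 129 and were overlapped in 60.4% ± 10.3 of cases, 35 of them in all 12 libraries. The nearest protein-coding gene was at a median of 322 bp for the 74 genes overlapped throughout and 271 bp for the 46 genes overlapped in 0 libraries. Between divergent protein-coding genes 58.1% of 89 tRNA genes were overlapped on average, between convergent ones 61.1% of 48 and between genes of 1 direction 60.7% of 138.

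The study varied the amount of cells assayed, and the tRNA gene calls were compared between these amounts. Of the variance between libraries in the percent of tRNA genes overlapped, 29.8% lay between biomasses (exact permutation test over 369600 assignments, p = 0.381, adjusted p = 0.572 over 3 tests). For genes with a summit within 100 bp it was 17.0% (exact permutation test, p = 0.690, adjusted p = 0.690). For the tRNA percent minus the noncoding window percent it was 41.4% (exact permutation test, p = 0.214, adjusted p = 0.572). Without 100 mg replicate 1, which had the fewest inside summits, the value for summits within 100 bp was 66.7% (exact permutation test, unadjusted p = 0.0355). Compared with 500 mg, the percent overlapped was 10.7 points higher at 4 mg (exact permutation test, p = 0.1). It was −2.30 points at 20 mg (exact p = 0.9) and +3.88 points at 100 mg (exact p = 0.7). For summits within 100 bp the exact permutation test gave p = 0.1 for both 4 mg and 20 mg, which differed from 500 mg by +6.42 and +6.79 points. For 100 mg the difference was +6.55 points, with an exact p of 0.5. With 3 libraries against 3 the smallest possible p is 0.1. In the percent overlapped, each library of 4 mg lay above the 3 libraries of 500 mg, while those of 20 mg and 100 mg overlapped with 500 mg. Without 20 mg replicates 1 and 2, which cover little of the Ty frames, the 20 mg difference was +10.4 points from 1 library.

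Replicates shared their tRNA genes to different degrees. Of the genes overlapped in any replicate, 145 of 217 (66.8%) were overlapped in all 3 at 4 mg, 109 of 192 (56.8%) at 20 mg, 115 of 214 (53.7%) at 100 mg and 148 of 164 (90.2%) at 500 mg.

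A few genes separated a lower biomass from 500 mg completely. At 4 mg, 7 genes (2.55%) were overlapped in 3 of 3 libraries and in 0 of 3 at 500 mg, against 0.305% of the noncoding windows, and 0 genes did the reverse, against 0.497%. The 7 included EMT1, SUP6, YNCK0011C, YNCM0010W and SUF1. At 20 mg, 7 genes (2.55%) were overlapped in 3 of 3 libraries and in 0 of 3 at 500 mg, against 1.57% of the windows. These included SUF3, YNCE0012W, YNCG0031W, YNCG0040C and YNCG0042C. The reverse held for YNCD0005C, YNCD0029C, YNCK0016W and SUF7 (1.45%, against 1.09% of the windows), near the background. At 100 mg, SUF3, SUP6, YNCG0042C and YNCK0021W were overlapped in 3 of 3 libraries and in 0 of 3 at 500 mg (1.45%, against 0.393% of the windows), and 0 genes did the reverse, against 1.16%. Over both directions and all biomasses there were 22 such cases. Leaving out replicate 1 of 4 mg gave 40, leaving out replicate 3 of 20 mg gave 39, and omitting replicate 1 of 100 mg gave 38, each with 2 libraries left in that group. These counts have no test, and all lower biomasses were set against the same 500 mg libraries.

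Other genes of RNA polymerase III gave a wide range. RPR1, the RNA of RNase P, which trims tRNA precursors, was overlapped in 12 libraries with a summit inside in 12. SCR1, the RNA of the signal recognition particle, was overlapped in 11 with a summit inside in 11. RPR1 and SCR1 are 369 and 522 bp long, so the 75 bp windows are no background of matched length for them. RDN5-1 to RDN5-6, copies of the small ribosomal RNA made by polymerase III, were overlapped in 9, 10, 11, 12, 11 and 12. A summit lay inside them in only 0, 1, 5, 7, 3 and 3 libraries, in the same gene order. SNR6, the U6 spliceosomal RNA, was overlapped in 0 and SNR52, a snoRNA that polymerase III transcribes, in 3. For the 28 genes that encode subunits of RNA polymerase III, TFIIIB, TFIIIC, TFIIIA and the repressor Maf1, summits within 500 bp before the start codon were counted. Of these, 2 had one in all 12 libraries (7.14%, against 9.73% of 6000 protein-coding genes, a share near the background). They were MAF1 and RET1, which encodes a large subunit of the polymerase. TFC7, a TFIIIC subunit gene, had one in 8 libraries, RPC34, a polymerase subunit gene, in 6, and TFC4 and RPB8 in 1 each. The other 22 (78.6%) had none in any library, against 58.0% of all protein-coding genes.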

How the data were processed

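The 12 peak lists were made by the authors, 1 for each FAIRE library and its input, per the labels. Bowtie2 2.2.8, SAMtools 1.4, bedtools 2.26.0, FastQC 0.11.5, MACS2 2.1.1.20160309 and build R64 (sacCer3) are named per the submitters' processing notes, and reads were 75 bp and single-end per the labels. The sources used here give neither the settings nor the handling of multiply mapped reads. The deposited fold enrichment (a ratio), −log10 p-value and −log10 q-value of a peak, and the deposited score, come from the authors' peak caller. The score was not used, and −log10 p only ranked peaks within a list. Read totals were not analysed here, so depth is unknown.

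Positions came from the RefSeq table of R64, with strands from systematic names. Peaks were turned to 1-based positions and compared with Python 3.11.15, numpy 2.4.6 and pandas 2.3.3, and the code was tested on simulated peaks. Named genes were the 10 strongest and 10 of those with fewest calls, in chromosome order, up to 5 per separating direction, and a set known in the field. Tests permuted libraries exactly. Alternatives changed peak strength, overlap rule, window, distance, library and replicate block. Members, lists and tests were chosen with earlier results of these data known. The planned comparison of anticodon families was not made, since the table used here gives no anticodon, and Ty frames were found by shared start codons, since it holds no product names. No sequence was used here.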

Additional observations from a re-analysis of the deposited data

How the results depend on the processing

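Of 360 values recomputed under alternatives, 327 were rated unchanged, many of them from overlapping sets that each left out a single library. Differences were unchanged when they kept their sign and their side of a 0.05 threshold in exact permutation tests. Contrasts of a lower biomass with 500 mg have too few libraries to reach that threshold, so only their sign could change. Shares of variance across biomasses have no sign and were rated by the threshold alone. Counts of genes have no test and were rated by how far they moved. The excess of tRNA genes over noncoding windows stayed between 28.8 and 41.6 points (exact sign-flip permutation p between 0.000488 and 0.00195). Same-numbered libraries deviated with correlations of −0.166 to 0.157 (median −0.0208, 18 pairs). Differently numbered ones gave −0.215 to 0.219 (median 0.0186, 36 pairs). With 3 libraries per biomass these values cannot exclude a pairing by replicate number. With a replicate block the exact permutation p across biomasses was 0.283 for overlap, 0.665 for summits within 100 bp and 0.161 for the excess over windows. Peaks with −log10 q of at least 5 gave −0.848 points for overlap at 100 mg minus 500 mg and −2.08 for upstream minus downstream summits. The 3000 strongest peaks gave, for 20 mg minus 500 mg, −6.18 points for summits within 100 bp in place of +6.79 and −8.88 for the excess in place of +0.317, then −1.64 for promoter windows (exact p = 0.105), −7.5 for upstream minus downstream summits (exact p = 0.019) and 33 genes in all 12 libraries, in place of 74. Counting inside summits gave +5.82 points at 20 mg minus 500 mg, −25.5 near Ty, −1.88 for promoter windows (exact p = 0.12), 22 genes in all 12 libraries and 13 separating cases in place of 22, where a gene counts once per biomass. Flanks of 100 bp gave −4.42 summits and flanks of 500 bp +14.6. A Ty distance of 750 bp gave +0.487 points, and a promoter window of 250 bp +4.56 points. Among choices made after seeing the data, leaving out 20 mg replicates 1 and 2 gave +10.4 points at 20 mg minus 500 mg and +0.537 near Ty. Peaks of at most 1000 bp gave +4.97 and −35.6. The second was lowered by construction in the libraries where the peaks near Ty were wide. Genes over 3000 bp from Ty gave +0.418 at 20 mg minus 500 mg. Leaving out single libraries gave −8.67 to 1.88 points for overlap at 20 mg minus 500 mg, −0.485 to 11.0 at 100 mg minus 500 mg, and −4.27 to 3.28 for the excess at 20 mg minus 500 mg. It gave −1.55 to 2.27 for upstream minus downstream summits, 11.6% to 66.7% for summits within 100 bp across biomasses, 74 to 93 genes in all libraries left and 22 to 40 separating cases. Each such set had 2 libraries in place of 3 in an arm, which can only keep or raise the count of separating cases. The cause of these and the other changes was not tested. The comparison of anticodon families was not run. With 12 lists and no read totals, depth cannot be weighed against any of these values.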
